A study of Mus musculus with 10 samples.

Results

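The genes described here add, remove or read acetyl groups on histones. They are 34 mouse genes taken by symbol from a count table of 46959 gene entries, and all 34 were found once. They comprise 11 histone deacetylases (Hdac1 to Hdac11), 7 sirtuins (Sirt1 to Sirt7), 9 acetyltransferases (Kat2a, Kat2b, Kat5, Kat6a, Kat6b, Kat7, Kat8, Ep300 and Crebbp), 4 bromodomain proteins (Brd2, Brd3, Brd7 and Brd9) and 3 corepressor scaffolds (Ncor1, Sin3a and Sin3b). The symbols were chosen by function. All 34 passed the filter on low counts in each comparison.

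Acetylation of lysines on histone tails loosens their contact with DNA and creates docking sites. Acetyltransferases write the mark from acetyl-CoA. The zinc-dependent deacetylases erase it, as do the sirtuins, which consume NAD. Bromodomain proteins bind the acetylated lysine and bring transcription and remodelling complexes to it. In B cells, deacetylase complexes are recruited by lineage repressors, and inhibitors of the zinc-dependent enzymes change antibody class switching and plasma cell formation. SAHA (vorinostat) is such an inhibitor. It blocks zinc-dependent deacetylases and does not block sirtuins.

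RNA was sequenced from 10 libraries in 5 groups of 2, from mice 8 to 10 weeks old. Splenocytes depleted of cells carrying CD43, from mice named wt and of strain 129, spent 48 h in culture. They received bacterial lipopolysaccharide (LPS) at 5 µg/ml and, per the growth protocol alone, interleukin 4 (IL4) at 20 ng/ml, either without SAHA (LPS_IL4) or with it (LPS_IL4_SAHA, 200 nM in the sample names and 200 ng/ml in the protocol). The growth protocol names KOKI and BLACK-6 control mice as the source of the spleens, which does not match the strain field. Cells labelled femoral B cells, of strain C57BL6, were lysed without culture and came from mice called RAG2_deficient, 2KO and deltaEmu. The labels do not spell out 2KO. The design text describes mice lacking the 5′Eµ and 3′RR enhancers of the immunoglobulin heavy chain locus, and mice lacking RAG2, a recombinase subunit without which B cell development stops early. Femoral cells of wild-type mice were not analysed here. Per the design text the libraries hold pooled samples, so the p-values measure the spread between pools. Values in pairs below run in the order 4_et_7 and 6_et_8 for the spleen pools, 1 and 2 for RAG2_deficient, 1 and 3 for 2KO, and 5 and 7 for deltaEmu.

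Depth ran from 17710154 to 25544275 counts per library, and 1 count was worth 0.0402 to 0.0593 CPM (counts scaled to library size). The columns of the count table were matched to samples by the sequencing index in each description, and the number in the sample title gives the same match for 2 of 10 columns. Marker genes were known when this match was chosen. Rag1, a recombinase gene of early lymphocytes, had at least 141 CPM in every femoral library and at most 0.0418 CPM in every spleen library. Rag2 itself had 21.8 and 23.9 CPM in RAG2_deficient, 20.1 and 13.3 CPM in 2KO and 13.6 and 20.4 CPM in deltaEmu, and 0 counts in the spleen libraries. The RAG2_deficient libraries thus held the highest Rag2 values, and no label names the altered bases, so this count is no check of the genotype. If the title numbers are right instead, none of the comparisons holds. The titles also put SAHA on the opposite spleen samples from the descriptions. If the titles are right, each SAHA difference given here changes sign. Of the genes that inhibitors of deacetylases commonly raise, H1f0 had 20.1 and 16.4 CPM in LPS_IL4 against 18.8 and 21.6 CPM in LPS_IL4_SAHA, and Cdkn1a had 5.06 and 5.22 CPM against 2.97 and 3.29 CPM. The femoral cells were not only B cells by their RNA. The sum of 10 neutrophil markers ran from 7156 to 21038 CPM there, that of 9 erythroid markers from 2457 to 15436 CPM, and that of 8 stromal markers from 1223 to 8622 CPM. The sum of 10 B lineage markers was 766 to 3374 CPM. In the spleen libraries the highest neutrophil sum was 0.484 CPM, the highest erythroid sum 5.43 CPM and the highest stromal sum 0.180 CPM, while 10 markers of mature and activated B cells summed to 3499 to 4486 CPM. In bulk RNA of this kind, fewer cells of a type and less RNA per cell cannot be told apart.

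The library LPS_IL4 6_et_8 stood apart from the other 3 spleen libraries. It held the highest value of 17 of the 34 genes and the lowest of 16, and 7 genes were at least 1.5-fold higher in it than in each of the others. They were Crebbp, Ep300, Kat6a, Kat6b, Ncor1, Hdac4 and Hdac7. Across the 34 genes, the log2 difference between the 2 LPS_IL4 libraries had a Spearman correlation of 0.82 with the length of the gene model, against 0.33 over 17483 genes. Both are descriptions of 1 pair of libraries. The corresponding correlations over the 34 genes were -0.29 in LPS_IL4_SAHA, 0.65 in RAG2_deficient, 0.52 in 2KO and -0.25 in deltaEmu. The median absolute log2 difference between the 2 LPS_IL4 libraries was 0.395 over the 34 genes and 0.425 over the 17483. By this median the 34 did not differ more than all genes. The counts of highest and lowest values, and of the 7 genes, were not made over all genes. For these 7 genes, the differences between LPS_IL4 and the femoral groups are given below with and without LPS_IL4 6_et_8.

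Promoters are shown for 3 deacetylases whose RNA differed by tissue in opposite directions, so that their base composition can be compared. Hdac11 and Hdac5 were lower in the spleen cells and Hdac2 was higher. The stretches run from 250 bases before to 50 bases after the transcription start in RefSeq (GRCm38.p6), 5′ to 3′ on the gene's own strand. They lie at chr6:91156565-91156864 on the forward strand for Hdac11, chr11:102230123-102230422 on the reverse strand for Hdac5 and chr10:36974294-36974593 on the forward strand for Hdac2. Capitals mark GC boxes (GGGCGG) and CCAAT boxes (CCAAT), searched on both strands.
Hdac11: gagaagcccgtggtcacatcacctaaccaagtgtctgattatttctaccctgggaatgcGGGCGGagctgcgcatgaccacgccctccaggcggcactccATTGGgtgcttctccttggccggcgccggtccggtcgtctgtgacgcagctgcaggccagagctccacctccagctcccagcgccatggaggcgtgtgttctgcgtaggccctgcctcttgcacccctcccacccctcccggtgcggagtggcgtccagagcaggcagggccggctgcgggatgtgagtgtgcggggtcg
Hdac5: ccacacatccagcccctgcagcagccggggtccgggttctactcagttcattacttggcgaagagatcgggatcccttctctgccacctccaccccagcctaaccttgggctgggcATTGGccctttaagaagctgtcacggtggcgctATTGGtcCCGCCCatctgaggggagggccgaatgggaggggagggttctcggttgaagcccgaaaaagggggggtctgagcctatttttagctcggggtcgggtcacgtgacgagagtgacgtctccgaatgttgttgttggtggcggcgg
Hdac2: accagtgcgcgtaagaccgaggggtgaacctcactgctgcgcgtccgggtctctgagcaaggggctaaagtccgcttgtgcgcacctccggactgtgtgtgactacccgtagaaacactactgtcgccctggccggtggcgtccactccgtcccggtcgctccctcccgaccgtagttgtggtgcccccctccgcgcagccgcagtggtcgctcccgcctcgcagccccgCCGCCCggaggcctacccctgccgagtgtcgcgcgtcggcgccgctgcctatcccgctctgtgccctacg
These stretches hold 22, 18 and 36 CpG dinucleotides in that order. GC boxes are present in each, and CCAAT boxes in Hdac11 and Hdac5. Hdac9, also higher in the spleen cells, has 3 and 0 CpG dinucleotides and no GC box in its RefSeq promoters. Hdac4, called lower in LPS_IL4, has 32 CpG dinucleotides. The 3 stretches shown thus do not stand for the other deacetylases. Whether CpG content goes with the direction of the difference was not tested. RefSeq promoters were found for 30 of the 34 genes, 45 promoters in all, with a median of 20 CpG against 7 over 32851 mouse promoters of the same length. A GC box was present in 64.4% of the 45 and in 35.7% of all, a CCAAT box in 33.3% and 37.4%, and a TATA box (TATAAA) in 6.67% and 13.6%. An E box (CAGGTG) was present in 15.6% and 20.2%, and the core of the EBF1 motif (CCCNNGGG) in 20% and 13.7%. A match says only that the letters are there.

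RNA of all 34 genes was detected in each of the 10 libraries. Per gene length, over all libraries, Brd2 was the most abundant (32.5 RPKM), followed by Hdac1 (24.7 RPKM) and Ncor1 (22.4 RPKM). Kat6b (1.54 RPKM), Hdac11 (1.58 RPKM) and Sirt4 (1.77 RPKM) were the least abundant, and 9 genes lay below 5 RPKM. The most abundant gene of each class was Hdac1 among the deacetylases, Sirt7 (9.26 RPKM) among the sirtuins, Kat5 (20.0 RPKM) among the acetyltransferases, Brd2 among the bromodomain genes and Ncor1 among the corepressors. Of the 34 genes, 13 stayed within a 2-fold range over all 10 libraries. Hdac11 varied most within a tissue, 6.46-fold over the femoral libraries, while 19 genes stayed within 1.5-fold there. These counts of genes within a range were not made over all genes.

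**Figure D1:**
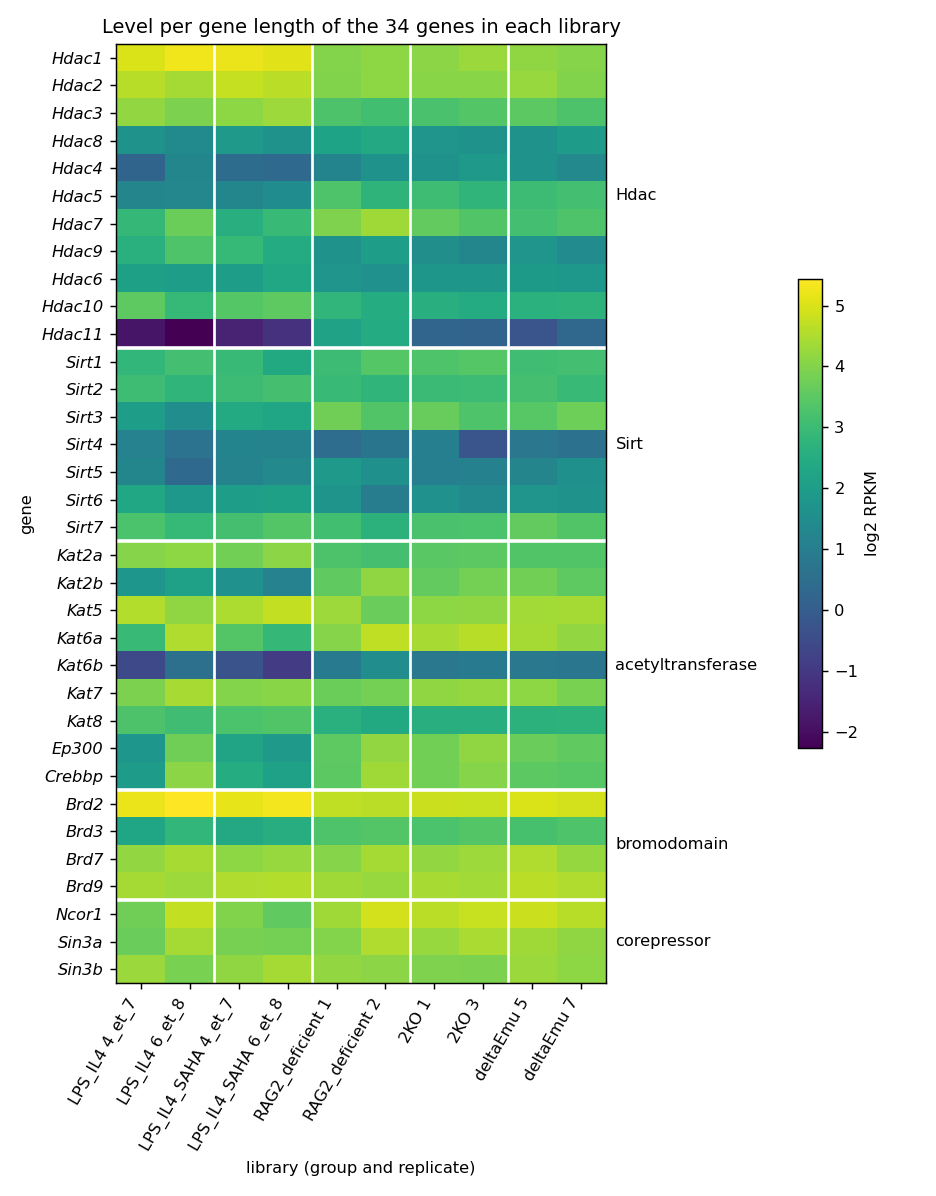
Heat map of log2 RPKM (CPM divided by the length of the gene model in kilobases) of the 34 genes (rows, by class) in the 10 libraries (columns, by group). Brd2 and Hdac1 are the brightest rows, Hdac11 is darkest in the 4 spleen libraries, and Ep300, Crebbp and Kat6a are brighter in LPS_IL4 6_et_8 than in the other spleen libraries.

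Tests were made with edgeR's quasi-likelihood test with Benjamini-Hochberg adjustment over all genes tested, and a gene was called at an adjusted p under 0.05. With SAHA, 0 of the 34 genes were called. Of 13913 genes in all, 0% were called. The median log2 difference was -0.05 over the 34 and -0.03 over all genes. Between 2KO and deltaEmu, 0 of 34 were called, where 3.7% of 16538 genes were, with medians of -0.05 and -0.01. Against RAG2_deficient, 1 gene was called in 2KO, where 4.31% of all genes were called and 3.05% were called lower, and 2 genes were called in deltaEmu, where 9.81% were called and 5.39% lower. Medians over the 34 and over all genes were 0.03 and -0.00 in 2KO, and 0.01 and -0.01 in deltaEmu. Both comparisons use the same RAG2_deficient libraries. Between LPS_IL4 and the mean of the femoral groups, 16 of 34 were called, 9 higher and 7 lower in LPS_IL4. There 61.2% of 17483 genes were called, 26.6% higher and 34.6% lower, so the share of these genes called (47.1%) was below that of all genes.

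The comparison of LPS_IL4 with the femoral groups describes the genes across the series. Tissue, culture, stimulation, strain and genotype differ together in it and cannot be told apart. Sex-linked RNA differs too, with Xist at 0 to 0.201 CPM in the spleen libraries and 678 to 2750.0 CPM in the femoral ones, and its part in the values of X-linked Hdac6 and Hdac8 was not tested. The median log2 fold change was -0.10 over the 34 genes and -0.15 over all genes. Without LPS_IL4 6_et_8, 21 genes were called, 9 higher and 12 lower, and the 16 were among them (61.8% of the 34 against 59.3% of all genes). When the trend of each library with gene length was removed, the median over all genes moved to 0.15 and 17 genes were called, 13 higher and 4 lower, of which 13 were among the 16 (50% of the 34 against 67.9% of all genes). Of the 16, 9 genes were called under each of the 19 other settings tried: Hdac1, Hdac3, Hdac5, Hdac9, Hdac11, Sirt3, Kat2a, Kat2b and Kat8. The femoral libraries carry the neutrophil, erythroid and stromal RNA given above, and its part in these differences was not tested.

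**Figure D2:**
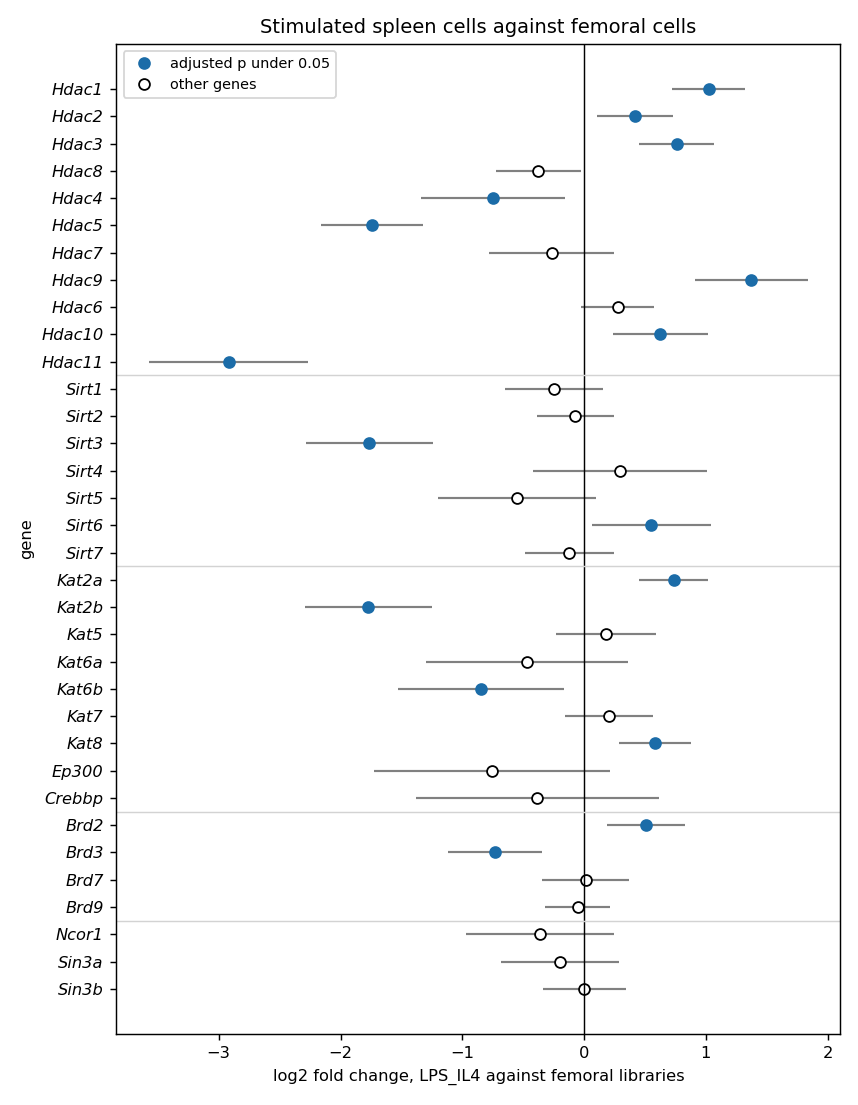
Log2 fold change of each of the 34 genes in LPS_IL4 (2 libraries) against the mean of the 3 femoral groups (6 libraries), with 95% confidence intervals as bars. Filled points are the 16 genes called at an adjusted p under 0.05, and the values run from -2.92 for Hdac11 to 1.37 for Hdac9.

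Class I deacetylases are the nuclear catalytic subunits of corepressor complexes. Hdac1 and Hdac2 act in the NuRD, Sin3 and CoREST complexes, Hdac3 acts with Ncor1, and Hdac8 works outside these complexes. Hdac1, Hdac2 and Hdac3 rose in LPS_IL4, and Hdac8 was not called. Hdac1 (chromosome 4, 129516104 to 129542713, reverse strand) had 111 and 133 CPM in LPS_IL4 and 127 and 118 CPM in LPS_IL4_SAHA. It had 55.6 and 60.4 CPM in RAG2_deficient, 58.9 and 67.6 CPM in 2KO, and 61.7 and 56.8 CPM in deltaEmu. All 4 spleen values lay above all 6 femoral values, and Hdac1 was 2.03-fold higher in LPS_IL4 (log2 1.02 ± 0.13 (SE), adjusted p = 0.000114). Hdac2 had 109 and 95.1 CPM in LPS_IL4 and 122 and 111 CPM in LPS_IL4_SAHA. Femoral libraries held 71.3 and 78.8 CPM in RAG2_deficient, 75.8 and 75.0 CPM in 2KO, and 85.7 and 70.7 CPM in deltaEmu. The spleen values were again the higher ones without overlap, by a smaller margin (log2 0.42 ± 0.14 (SE), adjusted p = 0.0245). Without LPS_IL4 4_et_7, Hdac2 was not called (adjusted p = 0.157).

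Hdac3 showed the same order, with 73.6 and 60.5 CPM in LPS_IL4 and 70.3 and 79.1 CPM in LPS_IL4_SAHA. In the femoral libraries it had 39.3 and 34.6 CPM in RAG2_deficient, 37.5 and 41.5 CPM in 2KO, and 45.5 and 39.2 CPM in deltaEmu. The groups did not overlap, and Hdac3 was 1.69-fold higher in LPS_IL4 (log2 0.76 ± 0.14 (SE), adjusted p = 0.00096). Hdac8, an X-linked gene, had 15.8 and 13.0 CPM in LPS_IL4 and 17.6 and 15.8 CPM in LPS_IL4_SAHA. Its femoral values were 22.3 and 25.2 CPM in RAG2_deficient, 16.4 and 15.4 CPM in 2KO, and 15.6 and 18.8 CPM in deltaEmu. These ranges overlap, and the difference from LPS_IL4 was not called (log2 -0.37 ± 0.16 (SE), adjusted p = 0.0619). Summed over the 4 genes, class I RNA was 305 ± 5.33 CPM (mean ± SD, n = 2) in LPS_IL4, 330.3 ± 9.60 in LPS_IL4_SAHA, 194 ± 7.45 in RAG2_deficient, 194 ± 7.62 in 2KO and 197 ± 16.2 in deltaEmu. The 3 femoral means lay within 1 SD of each other.

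Class IIa deacetylases (Hdac4, Hdac5, Hdac7 and Hdac9) shuttle between nucleus and cytoplasm, have little catalytic activity of their own and bind MEF2 transcription factors. They moved in different directions: Hdac9 rose in LPS_IL4, Hdac5 fell, Hdac4 fell with a call that was lost under 6 of 19 other settings, in 1 of them with the sign reversed (the length trend removed), and Hdac7 was not called. Hdac5 (chromosome 11, 102194432 to 102230166, reverse strand) had 20.99 and 21.6 CPM in LPS_IL4 and 21.4 and 24.6 CPM in LPS_IL4_SAHA. It had 86.8 and 59.1 CPM in RAG2_deficient, 71.9 and 60.3 CPM in 2KO, and 71.4 and 78.0 CPM in deltaEmu. Each femoral value was more than 2-fold above each spleen value, and Hdac5 was 3.34-fold lower in LPS_IL4 (log2 -1.74 ± 0.19 (SE), adjusted p = 3.48e-05). Hdac9 (chromosome 12, 34371503 to 34528889, reverse strand) went the other way, with 27.6 and 44.0 CPM in LPS_IL4 and 33.3 and 24.4 CPM in LPS_IL4_SAHA. In femoral cells it had 14.3 and 18.6 CPM in RAG2_deficient, 13.0 and 10.7 CPM in 2KO, and 15.0 and 12.1 CPM in deltaEmu. The spleen values were all higher, by 2.59-fold in LPS_IL4 (log2 1.37 ± 0.21 (SE), adjusted p = 0.000305).

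Hdac4, whose gene model spans 15375 bases, had 17.9 and 37.4 CPM in LPS_IL4 and 21.3 and 20.1 CPM in LPS_IL4_SAHA. Its femoral values were 35.9 and 48.5 CPM in RAG2_deficient, 48.8 and 56.8 CPM in 2KO, and 50.2 and 39.9 CPM in deltaEmu. The LPS_IL4 6_et_8 library lay inside the femoral range and the other 3 spleen libraries below it. The difference was called (log2 -0.75 ± 0.26 (SE), adjusted p = 0.0329), but it became 0.026 when the length trend was removed. Without LPS_IL4 6_et_8 it was -1.27 (adjusted p = 0.00124). Class IIa sums were 141 ± 48.9 CPM (mean ± SD, n = 2) in LPS_IL4, 110.3 ± 0.998 in LPS_IL4_SAHA, 230.0 ± 11.7 in RAG2_deficient, 192 ± 10.9 in 2KO and 185 ± 0.598 in deltaEmu. RAG2_deficient held the highest sum of the 5 groups.

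Hdac11, the only class IV deacetylase, showed the largest differences of the 34 genes against RAG2_deficient and between the tissues, at 3 levels. It lies on chromosome 6, 91156665 to 91174692, forward strand, and 15.4% of its exonic bases are shared with another gene model on the opposite strand, which had 0 counts in all libraries. Hdac11 had 17.3 and 21.3 CPM in RAG2_deficient, 4.62 and 4.41 CPM in 2KO, and 3.30 and 4.85 CPM in deltaEmu. It had 1.076 and 0.803 CPM in LPS_IL4 and 1.34 and 1.71 CPM in LPS_IL4_SAHA. RAG2_deficient was the high group, 2KO and deltaEmu were intermediate and overlapped each other, and all 4 spleen libraries were lowest. Hdac11 fell 4.36-fold in 2KO against RAG2_deficient (log2 -2.12 ± 0.26 (SE), adjusted p = 0.00635). It fell 4.88-fold in deltaEmu against RAG2_deficient (log2 -2.29 ± 0.27 (SE), adjusted p = 0.00277). Between 2KO and deltaEmu the difference was 0.16 ± 0.27 (95% interval -0.46 to 0.78, adjusted p = 0.849). LPS_IL4 was 7.56-fold below the femoral mean (log2 -2.92 ± 0.29 (SE), adjusted p = 2.02e-05).

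The fall in 2KO was not called without the library 2KO 3 (log2 -2.08, adjusted p = 0.0526), with the direction unchanged. Without RAG2_deficient 1, the library with the lower value, the differences were -2.27 in 2KO and -2.43 in deltaEmu. Without RAG2_deficient 2 they were -1.95 and -2.12. All 4 were called. Markers of several cell types also differed between these groups. Summed B lineage markers were 3000.5 to 3374 CPM in RAG2_deficient, 766 to 1240.3 CPM in 2KO and 900.0 to 1324 CPM in deltaEmu. Stromal markers were 7407 to 8622, 1223 to 1733 and 2406 to 2530.5 CPM in the same order. Neutrophil markers were 7156 to 7739, 9210.1 to 11178 and 18399 to 21038 CPM, and erythroid markers 3102 to 5712, 10435 to 15436 and 2457 to 2603 CPM. Among the femoral groups, B lineage and stromal RNA were thus highest where Hdac11 was highest, while neutrophil and erythroid RNA were not. In the spleen libraries, where Hdac11 was lowest, B lineage markers summed to 1933 to 2088 CPM, above 2KO and deltaEmu. Stromal markers summed to at most 0.180 CPM there. No marker of these 4 lists was at 0 in a femoral library. Their part in the Hdac11 difference was not tested.

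Hdac7, which in T and B lineage cells acts as a repressor partner of MEF2 factors, was also highest in RAG2_deficient. It lies on chromosome 15, 97792664 to 97844502, reverse strand. Hdac7 had 84.7 and 112 CPM in RAG2_deficient, 66.3 and 56.7 CPM in 2KO, and 48.9 and 54.8 CPM in deltaEmu. In the spleen libraries it had 40.1 and 72.8 CPM in LPS_IL4 and 33.5 and 41.9 CPM in LPS_IL4_SAHA. Both RAG2_deficient values were the highest of the 10 libraries. The fall in deltaEmu was 1.95-fold (log2 -0.96 ± 0.20 (SE), adjusted p = 0.0228), while in 2KO the difference did not pass (log2 -0.71 ± 0.20 (SE), adjusted p = 0.0922). The difference between 2KO and deltaEmu was 0.26 ± 0.20 (95% interval -0.20 to 0.71, adjusted p = 0.603). The fall in deltaEmu was not called without deltaEmu 5 (log2 -0.86, adjusted p = 0.242) or without deltaEmu 7 (log2 -1.06, adjusted p = 0.132). Without RAG2_deficient 1, Hdac7 was called in both comparisons (log2 -0.89 in 2KO and -1.15 in deltaEmu). Between LPS_IL4 and the femoral groups Hdac7 was not called (log2 -0.27 ± 0.23 (SE), adjusted p = 0.338), but it was under 3 of 19 other settings. Without LPS_IL4 6_et_8 it was -0.65 (adjusted p = 0.0373). The marker sums given for Hdac11 belong beside this gene too, and their part was not tested.

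**Figure D3:**
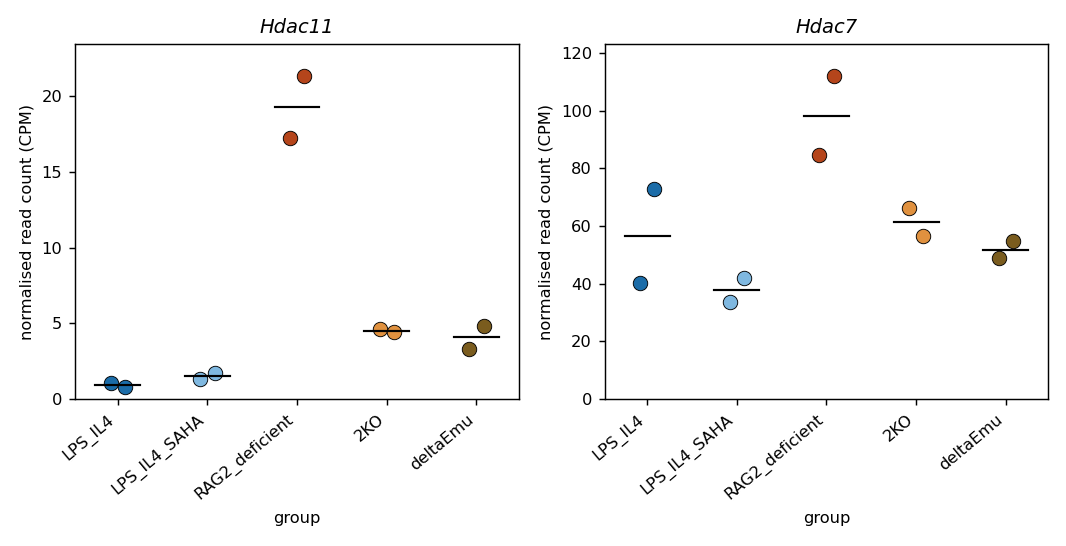
Normalised read count (CPM) of Hdac11 (left) and Hdac7 (right) in each library (points), with the mean of each group (line, n = 2). RAG2_deficient is highest for both genes, at 17.3 and 21.3 CPM for Hdac11 and at 84.7 and 112 CPM for Hdac7.

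Against RAG2_deficient, the other 32 genes were not called in either group. Next in order of p in 2KO was Hdac8 (log2 -0.61 ± 0.19 (SE), adjusted p = 0.119), which was -0.51 ± 0.19 in deltaEmu (adjusted p = 0.136). The RAG2_deficient libraries differ from the others in sex-linked RNA, with at most 0.296 CPM summed over 4 Y-linked genes against 110 to 162 CPM in 2KO and deltaEmu, and the part of this in the values of X-linked Hdac8 and Hdac6 was not tested. Without RAG2_deficient 1, 5 genes were called in 2KO (Hdac7, Hdac8, Hdac11 and Kat6b lower, Sirt7 higher), 14.7% of the 34 against 18.4% of all genes in that fit. In deltaEmu 9 were called without that library (Hdac7, Hdac8, Hdac11, Kat2b, Kat6b, Ep300 and Crebbp lower, Sirt7 and Kat5 higher), 26.5% of the 34 against 30.9% of all genes. Both shares were near those of all genes, so they say little about the 34 in particular. Without RAG2_deficient 2, smaller shares were called in both comparisons, of the 34 and of all genes. Each of these fits rests on a lone RAG2_deficient library. In deltaEmu, Sirt7 was 0.52 ± 0.18 (adjusted p = 0.113) with both RAG2_deficient libraries.

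2KO and deltaEmu are the 2 femoral groups that do not carry the RAG2 name, and their values lay close together. Log2 differences ran from -0.33 (Sirt5) to 0.45 (Crebbp) with a median of -0.05. None of the 34 passed an unadjusted p under 0.05 by edgeR either, where 15.7% of all genes did. DESeq2 also called 0 of the 34, where it called 5.74% of all genes. The 3 smallest p belonged to Sin3b (-0.26 ± 0.15, 95% interval -0.60 to 0.09, adjusted p = 0.478), Crebbp (0.45 ± 0.28, interval -0.20 to 1.10, adjusted p = 0.512) and Sirt1 (0.27 ± 0.18, interval -0.14 to 0.68, adjusted p = 0.531). The median 95% interval of the 34 differences was 0.90 log2 units wide, wider than the differences themselves.

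Class IIb deacetylases act largely in the cytoplasm, Hdac6 on tubulin and Hdac10 on polyamines. Hdac10 rose in LPS_IL4, with 39.2 and 24.99 CPM in LPS_IL4 and 36.2 and 39.3 CPM in LPS_IL4_SAHA. Femoral cells had 23.5 and 19.2 CPM in RAG2_deficient, 19.9 and 18.6 CPM in 2KO, and 21.5 and 22.0 CPM in deltaEmu. The LPS_IL4 6_et_8 value lay near the femoral range and the other 3 spleen values well above it (log2 0.63 ± 0.17 (SE), adjusted p = 0.0107). Without LPS_IL4 4_et_7 the difference was 0.27 (adjusted p = 0.228). Hdac6 had 23.7 to 29.2 CPM in the spleen libraries and 18.1 to 22.2 CPM in the femoral libraries. The spleen values were all higher, and the difference of LPS_IL4 was not called (log2 0.28 ± 0.13 (SE), adjusted p = 0.0969).

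Sirtuins couple deacylation to NAD. Sirt1, Sirt6 and Sirt7 are nuclear, Sirt2 is mainly cytoplasmic, and Sirt3, Sirt4 and Sirt5 are mitochondrial. Of the 7, Sirt3 fell and Sirt6 rose in LPS_IL4, and 5 were not called. Sirt3 (chromosome 7, 140863670 to 140882309, reverse strand) had 6.46 and 4.46 CPM in LPS_IL4 and 8.605 and 7.66 CPM in LPS_IL4_SAHA. It had 21.5 and 16.0 CPM in RAG2_deficient, 19.7 and 15.5 CPM in 2KO, and 16.9 and 21.2 CPM in deltaEmu. The 6 femoral values were all higher, and Sirt3 was 3.39-fold lower in LPS_IL4 (log2 -1.76 ± 0.23 (SE), adjusted p = 0.000125). Psmd13 on the opposite strand shares 9.68% of the exonic bases of Sirt3, and whether counting used strand is unknown here.

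Sirt6 had 14.0 and 9.92 CPM in LPS_IL4 and 11.4 and 12.1 CPM in LPS_IL4_SAHA. In the femoral libraries it had 9.19 and 5.62 CPM in RAG2_deficient, 8.67 and 7.30 CPM in 2KO, and 9.31 and 9.08 CPM in deltaEmu. No femoral value reached a spleen value. The call was close to the threshold (log2 0.55 ± 0.22 (SE), adjusted p = 0.0494) and was lost under 12 of 19 other settings, with log2 differences of the same sign. Sirt1 (-0.25), Sirt2 (-0.07), Sirt4 (0.30), Sirt5 (-0.55) and Sirt7 (-0.12) had log2 differences that were not called. Summed sirtuin RNA was 137 ± 11.3 CPM (mean ± SD, n = 2) in LPS_IL4, 144 ± 1.65 in LPS_IL4_SAHA, 149.6 ± 6.62 in RAG2_deficient, 164 ± 1.48 in 2KO and 169 ± 5.27 in deltaEmu. These sums were not tested, and they differ less between groups than those of the class I or class IIa enzymes.

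Kat2a and Kat2b are paralogous acetyltransferases that occupy the same position in the SAGA and ATAC coactivator complexes. They moved in opposite directions: Kat2a rose and Kat2b fell in LPS_IL4. Kat2a had 57.0 and 61.5 CPM in LPS_IL4 and 48.8 and 59.9 CPM in LPS_IL4_SAHA. Femoral cells had 34.3 and 31.6 CPM in RAG2_deficient, 38.2 and 39.2 CPM in 2KO, and 35.3 and 35.4 CPM in deltaEmu. No femoral value reached a spleen value (1.67-fold, log2 0.74 ± 0.13 (SE), adjusted p = 0.000668). Kat2b (chromosome 17, 53566861 to 53672720, forward strand) had 16.8 and 21.7 CPM in LPS_IL4 and 15.0 and 10.9 CPM in LPS_IL4_SAHA. In the femoral libraries it had 57.0 and 87.0 CPM in RAG2_deficient, 59.0 and 69.2 CPM in 2KO, and 68.2 and 55.6 CPM in deltaEmu. Every femoral value was higher, by 3.42-fold on average (log2 -1.77 ± 0.23 (SE), adjusted p = 0.000122). Per gene length, Kat2a had 16.33 RPKM in the spleen libraries and 10.2 RPKM in the femoral libraries, and Kat2b had 3.31 RPKM in the spleen libraries and 13.6 RPKM in the femoral libraries. The paralogue with the higher level was thus Kat2a in the spleen libraries and Kat2b in the femoral ones.

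Of the 5 MYST acetyltransferases, Kat6a, Kat6b and Kat7 act in complexes with ING and BRPF proteins. Kat8, which acetylates histone H4, rose, Kat6b fell, and Kat5, Kat6a and Kat7 were not called in LPS_IL4. Kat8 had 28.5 and 24.2 CPM in LPS_IL4 and 27.8 and 29.2 CPM in LPS_IL4_SAHA. It had 18.0 and 15.4 CPM in RAG2_deficient, 17.2 and 17.5 CPM in 2KO, and 18.5 and 19.2 CPM in deltaEmu. The ranges did not overlap (log2 0.58 ± 0.13 (SE), adjusted p = 0.00368). Kat6b, with a gene model of 16826 bases, had 11.4 and 25.3 CPM in LPS_IL4 and 13.7 and 9.15 CPM in LPS_IL4_SAHA. Its femoral values were 30.8 and 47.8 CPM in RAG2_deficient, 30.0 and 32.6 CPM in 2KO, and 30.0 and 28.5 CPM in deltaEmu. All spleen values were lower, LPS_IL4 6_et_8 least so. The call (log2 -0.85 ± 0.31 (SE), adjusted p = 0.0356) was lost when the length trend was removed (log2 -0.04, adjusted p = 0.817), and without LPS_IL4 6_et_8 the difference was -1.43. Log2 differences were 0.18 ± 0.18 for Kat5, -0.47 ± 0.37 for Kat6a and 0.21 ± 0.16 for Kat7. Kat6a had 69.1 and 212 CPM in LPS_IL4, and without LPS_IL4 6_et_8 it was called, at -1.38 (adjusted p = 0.00289). Without LPS_IL4 4_et_7 it was 0.12 and not called. Rnaseh2c on the opposite strand shares 21.1% of the exonic bases of Kat5.

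Ep300 and Crebbp encode the paired coactivators that acetylate histones at enhancers. Their values depended on 1 library. Crebbp had 54.5 and 233 CPM in LPS_IL4 and 76.5 and 60.3 CPM in LPS_IL4_SAHA. In femoral cells it had 154 and 276 CPM in RAG2_deficient, 187 and 221 CPM in 2KO, and 154 and 148 CPM in deltaEmu. The library LPS_IL4 6_et_8 was several times above the other spleen libraries. Ep300 showed the same, with 48.7 and 193 CPM in LPS_IL4 and 66.8 and 53.6 CPM in LPS_IL4_SAHA. It had 164 and 263 CPM in RAG2_deficient, 199 and 258 CPM in 2KO, and 182 and 168 CPM in deltaEmu. For both genes LPS_IL4 6_et_8 lay inside the femoral range and the other 3 spleen libraries lay below it. Against the femoral groups they were not called with both LPS_IL4 libraries (Crebbp -0.39 ± 0.44, Ep300 -0.76 ± 0.43). Without LPS_IL4 6_et_8 both were called, at -1.67 (adjusted p = 0.00169) and -1.96 (adjusted p = 0.000501).

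Among the readers, Brd2 and Brd3 belong to the BET family, Brd7 to the PBAF remodelling complex and Brd9 to the non-canonical BAF complex. The BET genes moved in opposite directions in LPS_IL4, Brd2 up and Brd3 down, and Brd7 and Brd9 were not called. Brd2 had 270.1 and 316 CPM in LPS_IL4 and 261 and 287 CPM in LPS_IL4_SAHA. Its femoral values were 191 and 182 CPM in RAG2_deficient, 207 and 202 CPM in 2KO, and 235 and 219.7 CPM in deltaEmu. Spleen values were higher without overlap (log2 0.51 ± 0.14 (SE), adjusted p = 0.0109). Brd3 had 35.5 and 52.3 CPM in LPS_IL4 and 38.0 and 42.8 CPM in LPS_IL4_SAHA. In femoral cells it had 73.0 and 77.0 CPM in RAG2_deficient, 69.7 and 76.5 CPM in 2KO, and 67.4 and 73.9 CPM in deltaEmu. Here the femoral values were higher without overlap (log2 -0.73 ± 0.17 (SE), adjusted p = 0.00441). With the length trend removed, Brd3 was not called (log2 -0.25, adjusted p = 0.162). Brd7 (0.01 ± 0.16, 95% interval -0.34 to 0.37) and Brd9 (-0.05 ± 0.12, interval -0.32 to 0.22) were near 0.

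Ncor1 is the scaffold that activates Hdac3, and Sin3a and Sin3b carry Hdac1 and Hdac2. None of the 3 was called in LPS_IL4. Ncor1 had 175 and 341 CPM in LPS_IL4 and 201 and 153 CPM in LPS_IL4_SAHA. It had 259.8 and 385 CPM in RAG2_deficient, 319 and 358 CPM in 2KO, and 361 and 313 CPM in deltaEmu. As with Crebbp, LPS_IL4 6_et_8 lay in the femoral range and the other 3 spleen libraries below it. Ncor1 was -0.36 ± 0.27 with both LPS_IL4 libraries and -0.81 without LPS_IL4 6_et_8 (adjusted p = 0.0263). Sin3a was -0.20 ± 0.22 and Sin3b 0.00 ± 0.15.

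Taking all 4 spleen libraries against all 6 femoral ones, with no overlap in CPM as the only criterion, 10 genes were higher in each spleen library, 6 were higher in each femoral library and 18 overlapped. Of 17483 genes, 23.2% and 32.3% did so. The spleen-high genes were Hdac1, Hdac2, Hdac3, Hdac9, Hdac6, Hdac10, Sirt6, Kat2a, Kat8 and Brd2. The femoral-high genes were Hdac5, Hdac11, Sirt3, Kat2b, Kat6b and Brd3.

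**Figure D4:**
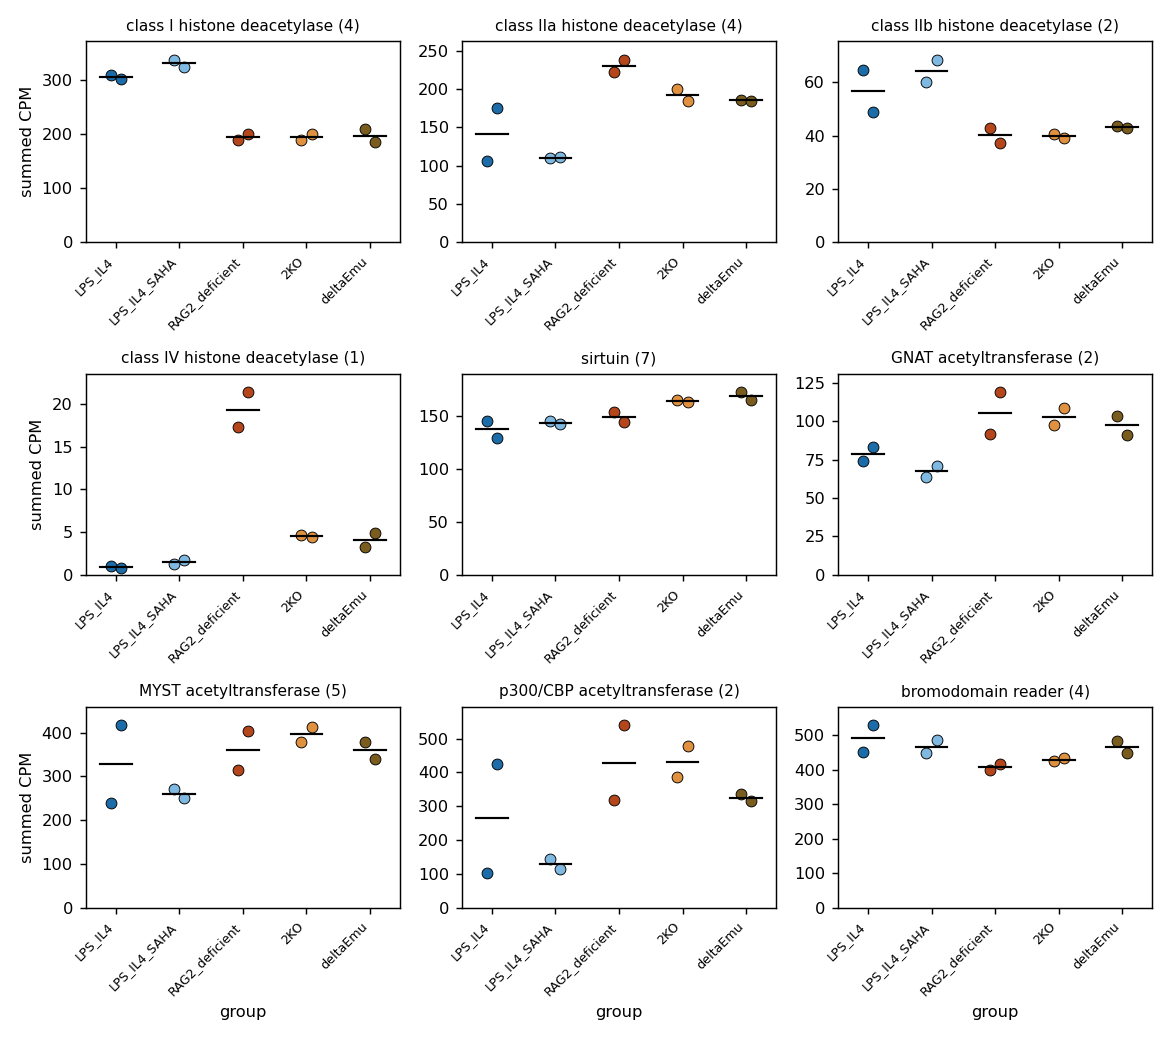
Summed CPM of the genes of each enzyme or reader family (number of genes in brackets) in each library (points), with the mean of each group (line, n = 2). Class I sums are higher in the 4 spleen libraries than in the 6 femoral ones, the class IV sum (Hdac11) is highest in RAG2_deficient, and the Ep300 and Crebbp sum differs widely between the 2 LPS_IL4 libraries.

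SAHA acts on the zinc-dependent deacetylases, and the comparison of LPS_IL4_SAHA with LPS_IL4 asks whether RNA of the acetylation genes differs with the inhibitor. No gene of the 34 was called by edgeR, by DESeq2 (0% of 13913 genes called) or by edgeR at an unadjusted p under 0.05 (1.34% of all genes). DESeq2 gave 2 of the 34 an unadjusted p under 0.05, Crebbp and Ep300, a count not made over all genes. For these genes LPS_IL4 6_et_8 was at 3.65-fold and 3.42-fold the mean of the other spleen libraries. The smallest p belonged to Kat2b (-0.61 ± 0.27, 95% interval -1.28 to 0.06, adjusted p = 0.939 by edgeR), Hdac7 (-0.63 ± 0.33, interval -1.44 to 0.19) and Sirt3 (0.54 ± 0.29, interval -0.18 to 1.26). For the class I enzymes, the intervals were -0.59 to 0.51 for Hdac1, -0.38 to 0.69 for Hdac2, -0.41 to 0.64 for Hdac3 and -0.37 to 0.72 for Hdac8. The median interval of the 34 genes was 1.25 log2 units wide.

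The 2 spleen pools disagreed, and 22 of the 34 genes differed in sign between them, a count not made over all genes. Across the 34 genes, the SAHA difference had a Spearman correlation with the length of the gene model of 0.37 in pool 4_et_7 and -0.77 in pool 6_et_8, a description of 1 pair of libraries each. In pool 4_et_7 the differences were small, from -0.30 for Sirt6 to 0.49 for Crebbp on the log2 scale. In pool 6_et_8, Crebbp was -1.95, Ep300 -1.85, Kat6a -1.66 and Kat6b -1.47, while Hdac11 was 1.09 and Sirt5 0.99. The 6 genes with the longest models (Kat6b, Hdac4, Ep300, Crebbp, Ncor1 and Kat6a) had lower values with SAHA in that pool and higher values in the other, and Sirt5, the gene with the shortest model (1367 bases), had a higher value. Not all genes followed length: Hdac5, next in length (8780 bases), was 0.19 in pool 6_et_8, and the shorter Hdac9 and Kat2b were -0.85 and -0.998. Without LPS_IL4 4_et_7, so that LPS_IL4 6_et_8 stood alone for the untreated cells, 8 genes were called lower with SAHA (Hdac4, Hdac7, Kat2b, Kat6a, Kat6b, Ep300, Crebbp and Ncor1) among 2670 of 14862 genes called (23.5% of the 34 against 18.0% of all genes). Without LPS_IL4 6_et_8, 0 of the 34 and 5 of all genes were called. Of these 8 genes, Crebbp, Ep300, Kat6a and Hdac4 then had differences of 0.31, 0.29, 0.22 and 0.19, of the opposite sign. Kat2b (-0.39) and Hdac7 (-0.11) kept a negative difference, as in both pools, and Kat6b and Ncor1 were both at -0.01.

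**Figure D5:**
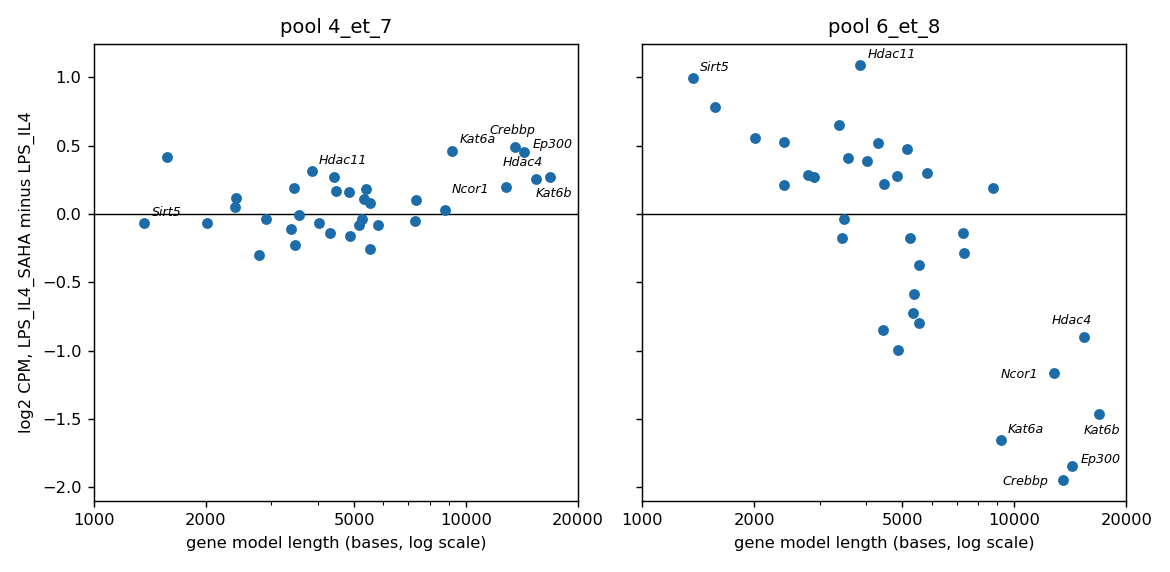
Log2 CPM difference between LPS_IL4_SAHA and LPS_IL4 within each spleen pool (left 4_et_7, right 6_et_8) against the length of the gene model, on a log axis, for the 34 genes (points). In pool 4_et_7 the genes stay between -0.30 and 0.49, and in pool 6_et_8 Crebbp, Ep300, Kat6a, Kat6b, Ncor1, Kat2b and Hdac4 lie at -0.90 or lower.

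Genes that work with the 34 were counted from 4 lists, of complex partners, other readers and cofactor supply. With SAHA, 0 of 80 partner genes were called, by edgeR or DESeq2 (0% of all genes by each). At an unadjusted p under 0.05 by edgeR it was also 0, where 1.34% of all genes passed. The median log2 difference of the 80 partner genes was -0.18. Between 2KO and deltaEmu 1 of 80 was called (1.25% against 3.7% of all genes), with a median of 0.08. It was Brpf3, a scaffold of MYST complexes, with 57.6 ± 20.8 CPM in 2KO (mean ± SD, n = 2) and 23.1 ± 0.806 CPM in deltaEmu (log2 1.33 ± 0.29 (SE), adjusted p = 0.0496). Against RAG2_deficient, 0 of 80 were called in 2KO by edgeR (4.31% of all genes), with a median of 0.06. At an unadjusted p under 0.05 by edgeR there were 7 of 80 (8.75% against 19.2% of all genes). DESeq2 called 2 of 80, where it called 7.51% of all genes. In deltaEmu 2 of 80 were called (2.5% against 9.81% of all genes), with a median of -0.05. Both were supply genes. Nmnat1, which makes NAD in the nucleus, rose (log2 0.87 ± 0.22 (SE), adjusted p = 0.0482). Acss1, which makes acetyl-CoA from acetate in mitochondria, fell (log2 -0.68 ± 0.17 (SE), adjusted p = 0.0497).

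Between LPS_IL4 and the femoral groups, 37 of 80 partner genes were called, 19 higher and 18 lower, which as a share (46.3%) was below that of all genes. Their median was -0.03. All 6 supply genes were called, 4 higher and 2 lower, where 61.2% of all genes were called. Nampt, which makes the NAD precursor that sirtuins depend on, had 355 ± 6.47 CPM in LPS_IL4 (n = 2) and 97.2 ± 13.7 CPM in the femoral libraries (n = 6) (log2 1.87 ± 0.17 (SE), adjusted p = 1.00e-05). Acss1 had 14.4 ± 0.160 and 78.0 ± 16.6 CPM (log2 -2.41 ± 0.16 (SE), adjusted p = 1.42e-06). Of 30 deacetylase partners 8 rose and 6 fell, among them Rbbp7, a histone-binding subunit shared by Hdac1 and Hdac2 complexes (log2 1.42 ± 0.16 (SE), adjusted p = 5.45e-05), and Rcor3, a CoREST scaffold (log2 -1.88 ± 0.24 (SE), adjusted p = 9.10e-05). Of 22 acetyltransferase partners 4 rose and 4 fell, with Hat1, a cytoplasmic histone acetyltransferase (log2 0.86 ± 0.14 (SE), adjusted p = 0.000512), and Tada2a, an adaptor in the Kat2a complexes (log2 0.98 ± 0.16 (SE), adjusted p = 0.000522), at the smallest p. Of 22 other readers 3 rose and 6 fell, with Cecr2 (log2 -2.27 ± 0.34 (SE), adjusted p = 0.000309) and Yeats4 (log2 0.72 ± 0.14 (SE), adjusted p = 0.00164) at the smallest p.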

How the data were processed

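RNA of 10 mouse libraries was analysed from 1 table of raw read counts per gene that the authors deposited, with 46959 genes and 100 control entries, which were left out. Per the submitters' processing notes, STAR 2.4.0a aligned the reads and featureCounts of Subread 1.4.6-p1 counted them on mm10/GRCm38. Per the labels' protocols, the libraries are stranded total RNA. How strand and multiply matching reads were handled, and which annotation was used, is not given in the sources used here. Genes that overlap others are therefore uncertain. The deposited table also gives the length of each gene model, used for RPKM.

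Tests used edgeR 4.0.16 in R 4.3.3: filterByExpr with a minimum count of 10, TMM scaling and the quasi-likelihood test, with p-values adjusted by Benjamini-Hochberg across every tested gene and called at 0.05. The 4 spleen libraries formed a fit with 2 residual degrees of freedom, the 6 femoral ones a fit with 3, and all 10 a fit with 5. For pairs of groups of 2, the smallest p of an exact permutation test is 0.333. CPM and RPKM use TMM factors over all 10 libraries. Alternatives were DESeq2 1.42.0, RLE factors, no filter, highly abundant genes left out, each library left out, other sets of libraries, a replicate block and, added after the data were seen, removal of each library's trend with gene length and a crossed block. The pipeline was tested on simulated counts. Depth was 17710154 to 25544275 counts. The 34 genes and the partner and marker lists were chosen with earlier results of these data known. Named genes are the called ones, the 3 smallest p where none was called, the most abundant of each class, and the 2 called partners of smallest adjusted p per list and comparison.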

Additional observations from a re-analysis of the deposited data

Results flagged for a closer look

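For 3 genes the SAHA difference ran in opposite directions in the 2 spleen pools by at least 0.3 on the log2 scale in each. This count was not made over all genes. The difference in pool 4_et_7 minus that in pool 6_et_8 was 2.44 for Crebbp (0.49 and -1.95), 2.30 for Ep300 (0.46 and -1.85) and 2.12 for Kat6a (0.46 and -1.66). The untreated library LPS_IL4 6_et_8 stood above the other 3 spleen libraries for these genes. It was at 3.65-fold their mean for Crebbp, 3.42-fold for Ep300 and 2.74-fold for Kat6a. With 1 library per pool and treatment, the difference between the pools was not tested.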

How the results depend on the processing

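Each library was left out in turn. Over these fits the number of the 34 genes called ran from 0 to 8 with SAHA, 0 to 0 for 2KO against deltaEmu, 0 to 5 for 2KO against RAG2_deficient, 1 to 9 for deltaEmu against RAG2_deficient and 12 to 21 for LPS_IL4 against the femoral groups. All genes called ran from 0 to 2670, 119 to 1587, 153 to 3222, 259 to 5401 and 9640 to 11317 in the same order. A lone library is then assumed to vary like the other groups. DESeq2 called 2 of the 34 genes (5.88%) and 1242 of all genes (7.51%) for 2KO against RAG2_deficient. For 2KO against deltaEmu it called 0 of the 34 genes and 949 of all genes (5.74%). Without the filter on low counts, 2 of the 34 genes (5.88%) and 1971 of all genes (7.18%) were called for 2KO against RAG2_deficient. All genes called were then 145 with SAHA, 1537 for 2KO against deltaEmu and 3308 for deltaEmu against RAG2_deficient. Fits of only the 4 libraries compared called 1580 genes for 2KO against deltaEmu and 213 for 2KO against RAG2_deficient. With immunoglobulin, mitochondrial, ribosomal RNA and globin genes left out, 388 genes were called for 2KO against deltaEmu. LPS_IL4 against deltaEmu alone called 10 of the 34 genes (29.4% against 53.1% of all genes). The cause of these shifts was not tested.

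Hdac4 in LPS_IL4 against the femoral groups changed sign to 0.026 with the length trend removed, a setting chosen after seeing the data. Among the values of single called genes under the other settings, 303 kept direction and call, 36 kept direction without the call and 1 reversed. The spleen pools share names across the groups: the deviations of same-named libraries had a Pearson correlation of -0.442 over 13913 genes. With pool as a replicate block 0 of the 34 genes were called with SAHA, and with the names crossed also 0.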
